A study of Mus musculus with 6 samples.

Results

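The unfolded protein response and the integrated stress response were followed through 37 genes, listed by name for their known parts in these pathways, with earlier results of these data known. All 37 were found among the 31245 genes of a table of mouse primary cortical neuronal cultures, and all 37 passed the filter on low values. They comprise 4 sensors and transducers, 6 transcription factors and feedback regulators, 3 stress effectors, 13 chaperones, folding enzymes and degradation factors of the endoplasmic reticulum (ER), 7 enzymes of amino acid and one-carbon synthesis, and 4 amino acid transporters. The treated cultures received NGPF2, a factor that the labels name by its abbreviation alone, at 1.5 ng/ml for 2 h (n = 3). Their controls received the vehicle, PBS, for 2 h (n = 3). Both groups were grown from the cortex of pups of postnatal day 1, on poly-D-lysine in Neurobasal A with B27, and were used at 12 to 13 days in vitro. Strain, genotype, sex and number of pups were not given in the sources used here.

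Messenger RNA was counted in 6 libraries that form 3 pairs from 3 independent experiments, per the series' design, and a pair here joins the NGPF2 and vehicle libraries of 1 replicate number. Total counts ran from 17478070 to 45193691 in NGPF2 libraries and from 24311967 to 44788235 in vehicle libraries. Libraries of replicates 2 and 3 of both groups carry a shared library name and lane in their titles, which those of replicate 1 lack, so each result is given over the 3 pairs, per pair, and within replicates 2 and 3. The labels do not say whether the libraries that share a name came from separate cultures, and p-values within them measure only the spread between these libraries. Levels are normalized counts (each count over its library's size factor), and a log2 difference is that of the normalized count plus 1, NGPF2 minus vehicle.

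Misfolded protein in the ER is sensed by the membrane proteins IRE1 (encoded by Ern1), PERK (Eif2ak3) and ATF6. IRE1 splices the Xbp1 messenger, and XBP1 together with the cleaved form of ATF6 turns on chaperone genes. PERK and related kinases phosphorylate the translation factor eIF2, which lowers protein synthesis in general but favours translation of the Atf4 messenger. ATF4 then turns on genes of amino acid synthesis and transport, the transcription factor CHOP (Ddit3) and feedback genes. Counts per gene show neither Xbp1 splicing nor ATF6 cleavage nor the translation of Atf4.

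Promoter sequences are shown because chaperone genes and ATF4 targets are known for different elements, though many of the 37 genes held neither in the stretch searched. RefSeq windows on GRCm38.p6, from 250 bases before to 50 bases after the start, were at hand for 33 of the 37 genes. Both strands were searched for the ER stress response element (ERSE, read as CCAAT, 9 bases of any kind, then CCACG), and for the C/EBP-ATF response element (CARE, read as TGATGNAA). The ERSE stood in 7 of 12 windows of ER folding genes and in 0 of 21 windows of the other genes, against 0.119% of all 32851 windows. Examples are given 5′ to 3′ on the strand of the gene, with the element in capitals. Where the element lies on the opposite strand the capitals are its reverse complement.
Hspa5 (chr2:34772020-34772048, + strand): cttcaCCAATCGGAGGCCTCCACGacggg
Calr (chr8:84847070-84847098, - strand): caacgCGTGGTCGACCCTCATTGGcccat
Canx (chr11:50325795-50325823, - strand): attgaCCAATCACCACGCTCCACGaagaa
Dnajc3 (chr14:118937822-118937850, + strand): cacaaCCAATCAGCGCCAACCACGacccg

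The CARE stood in 6 windows, those of Asns, Chac1, Herpud1, Nupr1, Slc7a11 and Trib3, which is 1 of 12 ER folding genes and 5 of 21 other genes. In all windows its share was 3.97%. The capitals mark the CARE in the 4 examples below. In Trib3 it lies after the start and is not shown.
Chac1 (chr2:119351044-119351061, + strand): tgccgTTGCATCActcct
Nupr1 (chr7:126625568-126625585, - strand): ccagaTTGCATCAgacag
Slc7a11 (chr3:50443648-50443684, - strand): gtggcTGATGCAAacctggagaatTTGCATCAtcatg
Asns (chr6:7693220-7693237, - strand): ccacaTGATGAAActtcc

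Herpud1, which feeds ER proteins into degradation, held a CARE and also the second form of the ER element, ERSE-II (ATTGG, 1 base of any kind, then CCACG). Its sequence is shown because it alone among the 33 windows carried both kinds of element, with the CARE first and the ERSE-II last.
Herpud1 (chr8:94386312-94386392, + strand): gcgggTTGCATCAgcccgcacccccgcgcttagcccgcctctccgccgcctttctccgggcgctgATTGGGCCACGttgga
The ERSE-II stood in 0.0365% of all windows. The XBP1 element TGACGTGG stood in 0 of the 33 windows and in 0.676% of all windows. A match describes these letters only.

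Over the 3 pairs, 0 of the 37 genes and 0.0% of the 16653 genes tested passed an adjusted p of 0.05 (limma, replicate number as a block). The smallest adjusted p of a stress response gene was 0.379, and 15 of the 37 had an unadjusted p under 0.05, as did 2166 of all genes. On recovered counts with voom 0 of the 37 passed as well, and 14 had an unadjusted p under 0.05. The direction was mostly downward. In 16 of the 37 genes NGPF2 was below vehicle in each of the 3 pairs, and in 3 it was above, beside 3146 and 2924 of the 16653 genes tested. The 3 NGPF2 libraries lay wholly below the 3 vehicle libraries in 11 genes, Ern1, Atf5, Ppp1r15a, Chac1, Sesn2, Herpud1, Phgdh, Shmt2, Mthfd2, Slc3a2 and Slc7a5, against 5.89% of all genes. They lay wholly above in 0 genes, against 4.11% of all genes.

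The pairs differed from each other. The median log2 difference of the 37 genes stood at -0.05 for pair 1, -0.46 for pair 2 and -0.49 for pair 3, whereas that of all genes tested was within 0.01 of 0 in each. In pair 1, 0 of the 37 genes differed more than 2-fold, beside 405 of the 16653 genes tested. The log2 differences of the 37 ran from -0.53 for Atf4 to 0.46 for Trib3. In pairs 2 and 3, 9 of the 37 genes each differed more than 2-fold, beside 2564 and 2650 of the 16653. More genes over 2-fold than in pair 1 were thus found among the genes at large too, while the median of all genes did not shift downward.

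**Figure D1:**
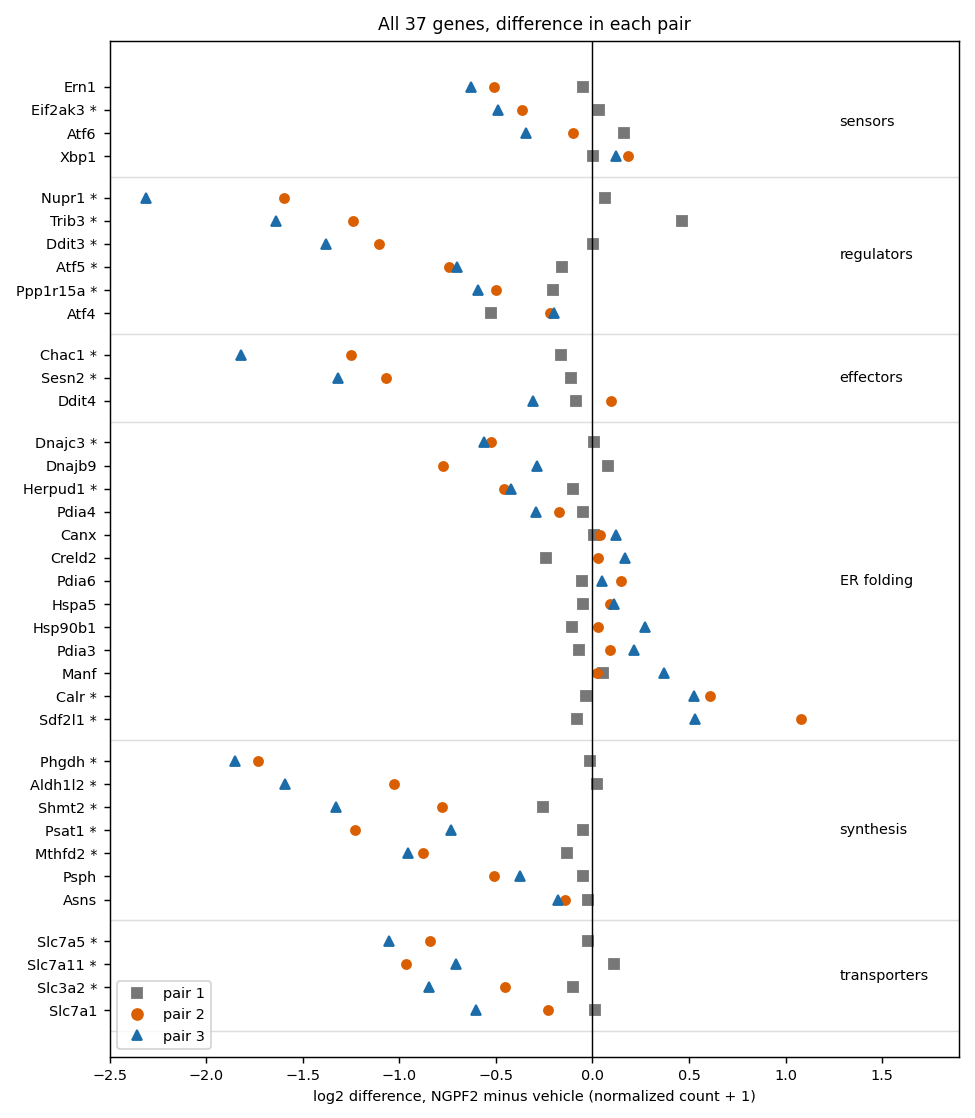
Log2 difference of the normalized count plus 1, NGPF2 minus vehicle, for each of the 37 genes (rows, grouped by role) in pair 1 (squares), pair 2 (circles) and pair 3 (triangles). An asterisk marks the 20 genes that passed in replicates 2 and 3. Squares cluster near 0, while circles and triangles lie to the left for most regulators, effectors, synthesis enzymes and transporters and near or right of 0 for most ER folding genes.

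Within replicates 2 and 3, 18 of the 37 genes (48.6%) fell with NGPF2 and 2 (5.41%) rose, at an adjusted p of 0.05 over all genes tested (limma, 2 libraries per group). Of all genes tested, 11.3% fell (1884) and 9.77% rose (1627). Under library total scaling, which moved the median of all genes by -0.13 (log2), 24 of the 37 fell and 2 rose, beside 2664 and 982 of all genes. The genes that fell were 5 of 6 regulators, 2 of 3 effectors, 5 of 7 synthesis enzymes, 3 of 4 transporters, 1 of 4 sensors and 2 of 13 ER folding genes. The 2 that rose, Calr and Sdf2l1, are both ER folding genes. Of the 7 genes with an ERSE, 1 fell, 1 rose and 5 did not pass, and of the 6 with a CARE, 5 fell and 1 did not pass. All 7 with an ERSE are ER folding genes, and 5 of the 6 with a CARE are not. Genes with a window but no CARE fell too, among them Phgdh, Ddit3 and Sesn2. A link of either element to the differences was not tested.

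Without vehicle replicate 2 or without vehicle replicate 3, 0 of the 37 genes and 0 of all genes tested passed, against 20 and 3511 with both. The differences stayed of similar size, at -1.77 and -1.82 (log2) for Phgdh, -1.31 and -1.18 for Ddit3 and 0.56 and 0.58 for Calr. With all 4 libraries the count was 7 with no filter on low values and 12 with a variance prior without trend. Ddit3, Sesn2, Phgdh, Mthfd2, Slc7a5 and Calr passed under every alternative of pseudocount, filter, scaling, variance prior, voom and block that was run, and without either NGPF2 library.

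**Figure D2:**
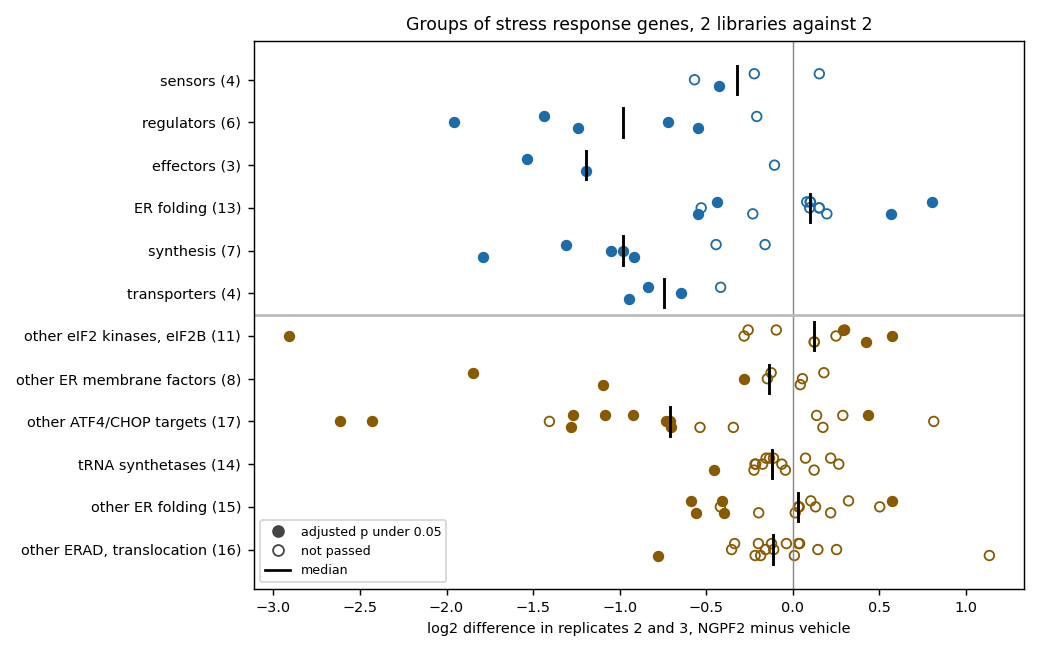
Log2 difference in replicates 2 and 3, NGPF2 minus vehicle (2 libraries each), for the genes of each role group (blue, number of genes in parentheses) and of further lists from the same pathways (brown). Filled circles passed an adjusted p of 0.05 and bars are medians. The medians of regulators, effectors, synthesis enzymes and transporters lie between -1.20 and -0.74, and that of ER folding genes at 0.10.

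Cell type markers moved in the same libraries. All 13 astrocyte markers kept for testing (14 listed) fell in replicates 2 and 3, and their summed normalized count was 24250 and 21070 in NGPF2 replicates 2 and 3, against 99650 and 90340 in vehicle replicates 2 and 3. In replicate 1 the sum was 40700 with NGPF2 and 36950 with vehicle. Microglial markers fell in 8 of 11 genes kept, and their sum was 87.27 and 136.4 with NGPF2, against 710 and 607.1 with vehicle in replicates 2 and 3. Markers of dividing cells fell in 7 of 10 and those of oligodendrocyte precursors in 4 of 6. Pan-neuronal markers rose in 5 of 10, with sums of 311900 and 303200 in NGPF2 replicates 2 and 3 and 253900 and 250900 in vehicle replicates 2 and 3. All 10 were detected in every library, at mean levels from 37.5 to 391 FPKM (counts scaled to exon length and library total).

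Of the remaining lists, the numbers that fell and rose were 4 and 5 of 12 for excitatory neurons, 3 and 6 of 12 for inhibitory neurons, 2 and 1 of 9 for oligodendrocytes, 4 and 1 of 11 for fibroblasts and mural cells, and 1 and 0 of 3 for endothelial cells. Gjb6 of the astrocyte list and Cx3cr1, Aif1, Tmem119 and Itgam of the microglial list were at 0 in at least 1 library. In bulk RNA, fewer cells of a type and less RNA per cell cannot be told apart. The part of these cell types in the differences of the stress response genes, in each role group that follows, was not tested.

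**Figure D3:**
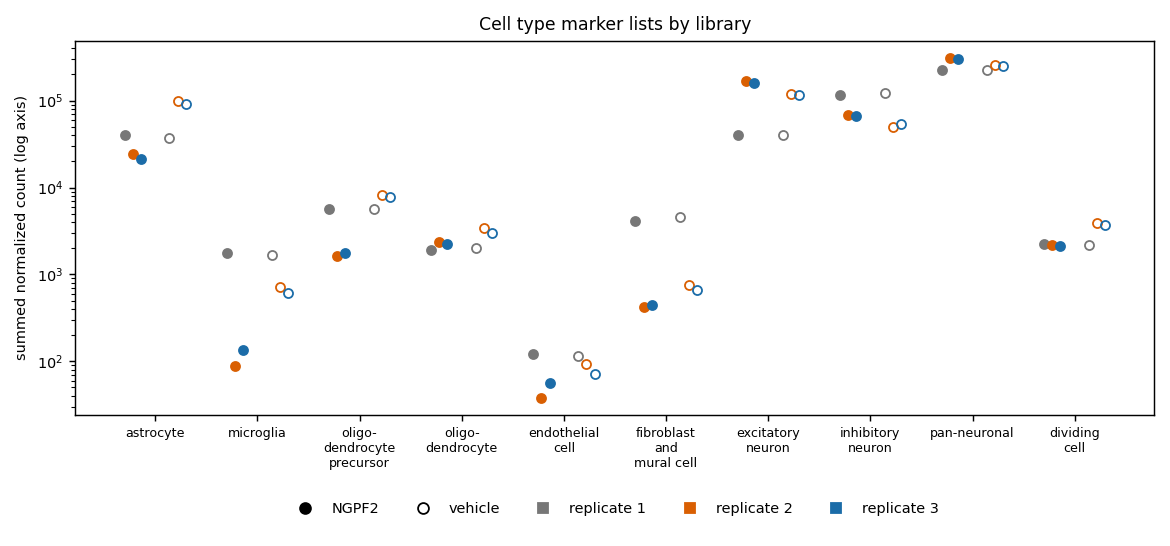
Summed normalized count (log axis) of 10 lists of cell type markers in each library. Filled circles are NGPF2 and open circles vehicle, with colours for the replicates. In replicates 2 and 3 the astrocyte, microglial, precursor and dividing cell sums are lower with NGPF2 than with vehicle, while in replicate 1 the filled and open circles lie close together.

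Among the regulators, Atf4, which encodes the central transcription factor of the integrated stress response (chromosome 15, 80255184 to 80257541, mm10, + strand), was one of the most abundant genes of the 37, at a mean of 104.7 FPKM. It had 4549, 7532 and 7936 normalized counts in NGPF2 replicates 1, 2 and 3, against 6556, 8758 and 9111 in vehicle replicates 1, 2 and 3. Each NGPF2 library was below its own vehicle library, but the groups overlapped, since both replicate 1 libraries were low. Its log2 difference in replicates 2 and 3 was -0.21 (SE 0.07, adjusted p = 0.083), which did not pass, although it passed under quantile and library total scaling. In pair 1 its log2 difference was -0.53, and 67 of 5813 genes that averaged 1000 or more normalized counts (1.15%) were as low there, a comparison chosen after its values were seen.

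Ddit3 encodes CHOP, a transcription factor of prolonged stress (chromosome 10, 127290774 to 127296288, + strand). It had 572.5, 712.5 and 647.9 normalized counts in NGPF2 replicates 1, 2 and 3, against 571.3, 1536 and 1687 in vehicle replicates 1, 2 and 3. The vehicle libraries of replicates 2 and 3 stood above the other 4 libraries, and the groups overlapped through replicate 1. In replicates 2 and 3 it was 2.37-fold lower with NGPF2 (log2 -1.24, SE 0.10, adjusted p = 0.003022). Its exons share 186 bases with the antisense genes Gm4189 and Mars and with a same-strand entry that is also named Ddit3. The strand setting of the counting is not stated in the sources used here.

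Nupr1, a small stress-induced chromatin protein, had 75.48, 80.1 and 52.05 normalized counts in NGPF2 libraries, against 72.22, 244.7 and 262.4 in vehicle libraries, in the order of replicates 1 to 3. Trib3, a pseudokinase that ATF4 and CHOP induce and that restrains them, had 58.21, 49.02 and 44.87 in NGPF2 libraries, against 41.92, 117 and 141.9 in vehicle libraries. As for Ddit3, vehicle replicates 2 and 3 were the high libraries of both genes and vehicle replicate 1 was not. Nupr1 was 3.88-fold lower with NGPF2 in replicates 2 and 3 (log2 -1.96, SE 0.25, adjusted p = 0.00944), which is the largest fall among the 37. Trib3 was 2.71-fold lower (log2 -1.44, SE 0.22, adjusted p = 0.014). Both are low in count. Neither passed with no filter on low values, but nor did genes of higher count such as Slc3a2 and Atf5.

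Atf5, a relative of ATF4 under the same translational control, had 1838, 1251 and 1387 normalized counts in NGPF2 libraries, against 2049, 2096 and 2255 in vehicle libraries. Ppp1r15a, the GADD34 subunit that directs a phosphatase to eIF2 and so closes the response, had 1284, 1279 and 1281 in NGPF2 libraries, against 1479, 1810 and 1936 in vehicle libraries. In both genes all 3 NGPF2 libraries lay below all 3 vehicle libraries. The log2 difference in replicates 2 and 3 was -0.72 for Atf5 (SE 0.09, adjusted p = 0.00858) and -0.55 for Ppp1r15a (SE 0.08, adjusted p = 0.0114). Exons of Atf5 share 164 bases with the antisense genes Il4i1 and Nup62.

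**Figure D4:**
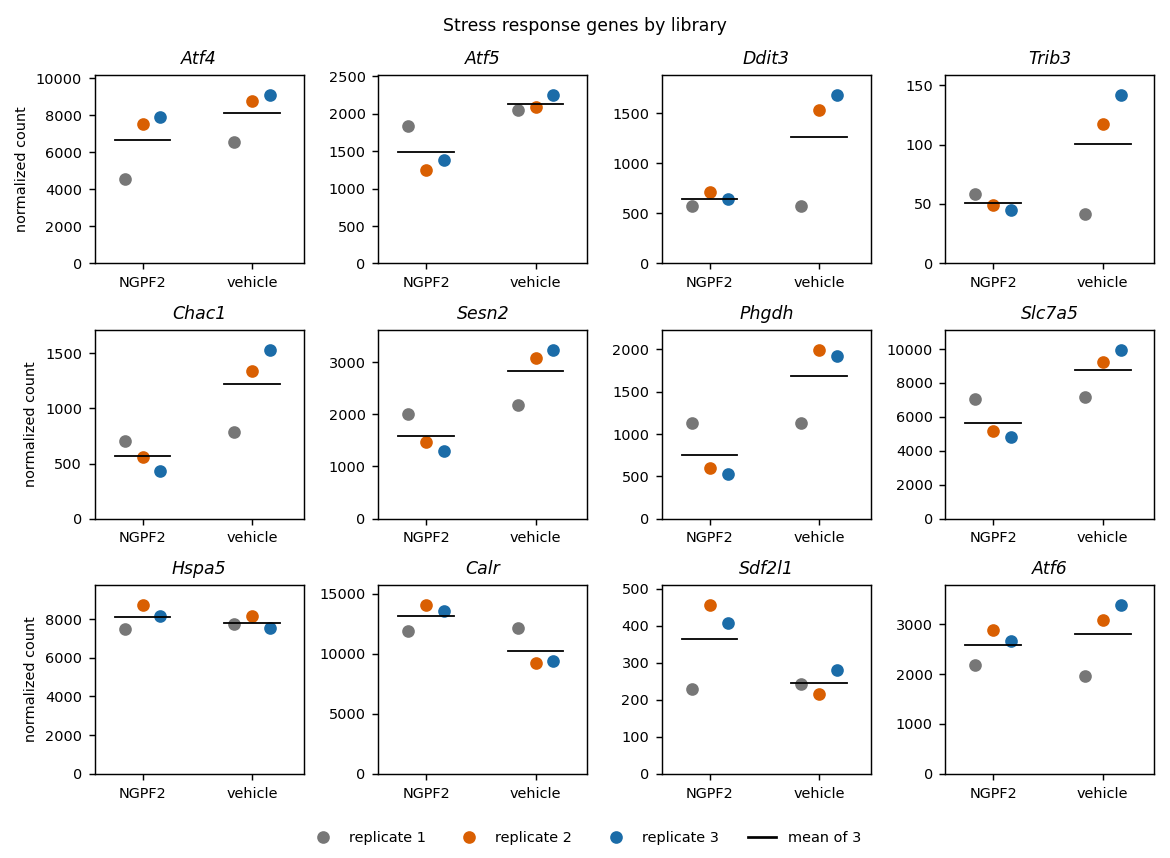
Normalized count of 12 of the 37 genes in each library, NGPF2 on the left and vehicle on the right of each panel, with colours for the replicates and a bar for the mean of 3. Vehicle replicates 2 and 3 stand high for Ddit3, Trib3, Chac1, Sesn2, Phgdh and Slc7a5 while replicate 1 does not, Hspa5 overlaps between the groups, and Calr and Sdf2l1 are higher with NGPF2 in replicates 2 and 3.

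Of the effectors, Chac1, which degrades glutathione and is a direct target of ATF4, had 703, 561.9 and 432.5 normalized counts in NGPF2 replicates 1, 2 and 3, against 786.7, 1339 and 1531 in vehicle replicates 1, 2 and 3. Sesn2, a leucine-binding inhibitor of mTORC1, had 2006, 1462 and 1294 in NGPF2 libraries, against 2169, 3072 and 3232 in vehicle libraries. NGPF2 was below vehicle in each pair and the groups did not overlap, with a small gap in pair 1 and wide gaps in pairs 2 and 3. Chac1 was 2.90-fold lower in replicates 2 and 3 (log2 -1.54, SE 0.16, adjusted p = 0.00538) and Sesn2 2.29-fold lower (log2 -1.20, SE 0.09, adjusted p = 0.00273). Ddit4, another inhibitor of mTORC1 that is also induced by glucocorticoids and low oxygen, did not pass, with a log2 difference of -0.11 (SE 0.12, adjusted p = 0.58).

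Of the 4 sensors and transducers 1 fell and 0 rose. Eif2ak3, the kinase PERK, had 1060, 834.5 and 870.4 normalized counts in NGPF2 libraries, against 1036, 1074 and 1223 in vehicle libraries. It fell in replicates 2 and 3 (log2 -0.43, SE 0.10, adjusted p = 0.0416), a call that was also lost without either NGPF2 library. Its exons share 485 bases with the antisense gene Gm43292. Ern1, the kinase and nuclease IRE1, was the least abundant of the 37 at a mean of 0.86 FPKM. It had 204.1, 180.5 and 157.9 in NGPF2 libraries, against 210.9, 257.2 and 244.5 in vehicle libraries, which did not overlap, yet its adjusted p in replicates 2 and 3 was 0.0561 (log2 -0.57, SE 0.15). It passed with a stricter filter, a mean of 50 normalized counts, and under TMM and library total scaling.

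Atf6 had 2183, 2879 and 2663 normalized counts in NGPF2 libraries, against 1952, 3090 and 3379 in vehicle libraries. NGPF2 was above vehicle in pair 1 and below it in pairs 2 and 3, and the log2 difference in replicates 2 and 3 was -0.22 (SE 0.08, adjusted p = 0.123), which passed under quantile and library total scaling. Xbp1 had 947.3, 1279 and 1456 in NGPF2 libraries, against 944.7, 1124 and 1339 in vehicle libraries. It was the one sensor or transducer whose log2 difference was above 0 in replicates 2 and 3 (0.15, SE 0.12, adjusted p = 0.422), and its groups overlapped.

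Of the 13 ER folding genes 2 fell and 2 rose, and their median log2 difference in replicates 2 and 3 was 0.10. Hspa5 encodes BiP, the main chaperone of the ER and the usual readout of the unfolded protein response. It had 7482, 8718 and 8141 normalized counts in NGPF2 libraries, against 7745, 8174 and 7543 in vehicle libraries. The libraries of both groups were interleaved, and the log2 difference in replicates 2 and 3 was 0.10 (SE 0.08, adjusted p = 0.384), with a sign that turned under quantile scaling (-0.09) and library total scaling (-0.03).

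Calr, a calcium-binding lectin chaperone and the most abundant of the 37 at a mean of 135 FPKM (chromosome 8, 84841850 to 84846934, - strand), had 11880, 14050 and 13530 normalized counts in NGPF2 libraries, against 12140, 9213 and 9385 in vehicle libraries. Sdf2l1, a partner of J-domain cochaperones of the ER, had 230.3, 455.5 and 407.4 in NGPF2 libraries, against 243.1, 215.2 and 281.5 in vehicle libraries. In both genes replicate 1 showed no gap, and NGPF2 was higher in replicates 2 and 3. Calr was 1.48-fold higher there (log2 0.57, SE 0.06, adjusted p = 0.00604) and Sdf2l1 1.75-fold higher (log2 0.80, SE 0.17, adjusted p = 0.0336). The Sdf2l1 call was lost without any 1 of the 4 libraries.

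Dnajc3, a BiP cochaperone that also inhibits PERK, and Herpud1 were the ER genes that fell. Dnajc3 had 1014, 796.2 and 795.1 normalized counts in NGPF2 libraries, against 1009, 1147 and 1176 in vehicle libraries. Herpud1 had 1699, 1543 and 1633 in NGPF2 libraries, against 1824, 2121 and 2185 in vehicle libraries. Herpud1 was lower with NGPF2 in each pair without overlap of the groups, whereas Dnajc3 was level in pair 1. In replicates 2 and 3 the log2 difference was -0.55 for Dnajc3 (SE 0.08, adjusted p = 0.0128) and -0.44 for Herpud1 (SE 0.07, adjusted p = 0.0184).

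The other 8 ER genes did not pass. They are the chaperone Hsp90b1, the lectin Canx, the disulfide isomerases Pdia3, Pdia4 and Pdia6, the cochaperone Dnajb9, and the secreted or resident ER proteins Creld2 and Manf. Their log2 differences in replicates 2 and 3 ran from -0.53 for Dnajb9 (adjusted p = 0.0659) to 0.20 for Manf (adjusted p = 0.282). Dnajb9 passed under 5 alternatives, among them voom, library total scaling and the replicate block (adjusted p = 0.0485). The signs of Hsp90b1, Canx, Pdia3, Pdia6 and Creld2 were above 0 and turned under quantile scaling, library total scaling or both.

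Of the 7 synthesis enzymes 5 fell and 0 rose. Phgdh, the first enzyme of serine synthesis, which in brain is mainly found in astrocytes (chromosome 3, 98313170 to 98339990, - strand), had 1127, 599 and 531.2 normalized counts in NGPF2 replicates 1, 2 and 3. It had 1136, 1993 and 1920 in vehicle replicates 1, 2 and 3. Replicate 1 was alike in both groups, while NGPF2 replicates 2 and 3 were the lowest and vehicle replicates 2 and 3 the highest of the 6 libraries. It was 3.46-fold lower with NGPF2 in replicates 2 and 3 (log2 -1.79, SE 0.10, adjusted p = 0.00149), the smallest adjusted p of the 37.

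The next step of serine synthesis, the aminotransferase Psat1, had 1872, 1509 and 2270 normalized counts in NGPF2 libraries, against 1940, 3537 and 3774 in vehicle libraries. Shmt2, the mitochondrial enzyme that passes a carbon from serine to folate, had 1165, 859.6 and 682 in NGPF2 libraries, against 1390, 1475 and 1713 in vehicle libraries. The gap was again widest in replicates 2 and 3, and for Shmt2 the groups did not overlap. The log2 difference there was -0.98 for Psat1 (SE 0.20, adjusted p = 0.0281) and -1.05 for Shmt2 (SE 0.15, adjusted p = 0.0108).

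Mthfd2, the mitochondrial folate dehydrogenase, had 620.5, 520.1 and 509.7 normalized counts in NGPF2 libraries, against 679.7, 955.7 and 988.8 in vehicle libraries. Aldh1l2, the mitochondrial enzyme that oxidizes formyl-folate, had 1683, 487.8 and 362.5 in NGPF2 libraries, against 1658, 994.1 and 1094 in vehicle libraries. Mthfd2 did not overlap between the groups. Aldh1l2 was highest in replicate 1 of both groups, unlike the other enzymes. In replicates 2 and 3 Mthfd2 was 1.89-fold lower (log2 -0.92, SE 0.09, adjusted p = 0.00494) and Aldh1l2 2.48-fold lower (log2 -1.31, SE 0.17, adjusted p = 0.00894). Exons of Aldh1l2 share 1056 bases with an antisense gene.

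The last step of serine synthesis, Psph, and asparagine synthetase, Asns, did not pass. The log2 difference in replicates 2 and 3 was -0.44 for Psph (SE 0.14, adjusted p = 0.0796) and -0.16 for Asns (SE 0.06, adjusted p = 0.13). Psph passed with the replicate block (adjusted p = 0.0397), and Asns under quantile and library total scaling. Asns is a textbook target of ATF4 and carries a CARE 16 to 23 bases before its start, and its libraries lay between 4590 and 5124 normalized counts with NGPF2 and between 4664 and 5791 with vehicle. Exons of Psph share 452 bases with the antisense gene Cct6a.

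Among the transporters, Slc7a5 (LAT1), which carries large neutral amino acids (chromosome 8, 121881150 to 121907694, - strand), had 7040, 5155 and 4796 normalized counts in NGPF2 libraries, against 7152, 9229 and 9945 in vehicle libraries. Its partner chain Slc3a2 had 5402, 4496 and 3839 in NGPF2 libraries, against 5795, 6153 and 6895 in vehicle libraries. For both, all 3 NGPF2 libraries lay below all 3 vehicle libraries. Slc7a5 was 1.93-fold lower in replicates 2 and 3 (log2 -0.95, SE 0.08, adjusted p = 0.00302) and Slc3a2 1.57-fold lower (log2 -0.65, SE 0.11, adjusted p = 0.0165).

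Slc7a11, the cystine and glutamate exchanger that also pairs with Slc3a2, had 928.8, 487.8 and 568.9 normalized counts in NGPF2 libraries, against 859.6, 954.8 and 930.3 in vehicle libraries. NGPF2 replicates 2 and 3 were the low libraries, and in pair 1 NGPF2 was slightly above vehicle. It was 1.79-fold lower in replicates 2 and 3 (log2 -0.84, SE 0.11, adjusted p = 0.0101). Slc7a1, the arginine and lysine transporter, did not pass (log2 -0.42, SE 0.11, adjusted p = 0.056), although it passed under 8 of the alternatives, among them quantile, TMM and library total scaling and the replicate block (adjusted p = 0.0467).

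Whether the NGPF2 difference itself differed between replicates 2 and 3 and replicate 1 was tested with an interaction term. The term passed below 0 for 4 of the 37 genes (10.8%), against 1.77% of all genes, and above 0 for 0, against 0.721% of all genes. The 4 are Phgdh (log2 -1.78, SE 0.17, adjusted p = 0.0202), Ddit3 (log2 -1.25, SE 0.18, adjusted p = 0.0417), Sesn2 (log2 -1.08, SE 0.16, adjusted p = 0.0431) and Slc7a5 (log2 -0.92, SE 0.13, adjusted p = 0.0412). The spread in this test comes from replicates 2 and 3 alone, since replicate 1 has 1 library per group. With a variance prior without trend 0 of the 37 passed, and without vehicle replicate 2 or without vehicle replicate 3 the number was again 0.

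The vehicle libraries of the library sets were compared as well. Vehicle replicate 1 is a single library with no spread of its own, and the test assumes that it varies like replicates 2 and 3. In vehicle replicates 2 and 3, 11 of the 37 genes (29.7%) were higher than in vehicle replicate 1 and 1, Calr (2.70%), was lower, against 10.5% and 9.42% of all genes (limma). The 11 are Atf4, Atf6, Ddit3, Trib3, Nupr1, Chac1, Sesn2, Phgdh, Psph, Mthfd2 and Slc7a5. Nupr1 was 3.47-fold higher (log2 1.797, SE 0.32, adjusted p = 0.0215), Ddit3 2.81-fold higher (log2 1.49, SE 0.13, adjusted p = 0.00383) and Psph 2.09-fold higher (log2 1.06, SE 0.17, adjusted p = 0.0168). Summed cell type markers differed widely between vehicle replicate 1 and vehicle replicates 2 and 3. Astrocyte markers went from 36950 to 99650 and 90340, and excitatory neuron markers from 40750 to 118300 and 117300. The excitatory sum went against most of its list, in which 8 of 12 markers were lower and 4 higher (3 passed each way). Sums of dividing cells, both oligodendrocyte lists and pan-neuronal markers were higher as well. Numbers passing as higher and lower were 7 and 0 of 10 (dividing cells) and 5 and 2 of 10 (pan-neuronal). They were 2 and 1 of 6 (oligodendrocyte precursors) and 2 and 0 of 9 (oligodendrocytes). Lower sums were those of inhibitory neurons (122100 to 50350 and 54170), fibroblasts and mural cells (4544 to 756.5 and 658.4), microglia (1679 to 710 and 607.1) and endothelial cells. Without vehicle replicate 2 or without vehicle replicate 3, 0 of the 37 genes passed here.

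Further genes of the same pathways were followed in 6 lists of 81 genes, of which 19 fell and 5 rose in replicates 2 and 3. The shares over all genes tested, to set beside each list below, were 11.3% fallen and 9.77% risen. In the list of other partners and targets of ATF4 and CHOP 9 of 17 fell and 1 rose. Cth, which makes cysteine from cystathionine, had 102.3, 69.34 and 69.99 normalized counts in NGPF2 libraries, against 98.02, 397.4 and 468.7 in vehicle libraries (log2 -2.61 in replicates 2 and 3, SE 0.16, adjusted p = 0.00205). Slc7a3, a cationic amino acid transporter, had 735, 171 and 147.2 in NGPF2 libraries, against 885.4, 811 and 910 in vehicle libraries (log2 -2.43, SE 0.14, adjusted p = 0.00165). Both were far below vehicle in replicates 2 and 3 and close to it in replicate 1. Pck2, the mitochondrial carboxykinase, followed with a log2 difference of -1.28 (SE 0.14, adjusted p = 0.00632).

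Of 11 other kinases, phosphatase factors and subunits around eIF2, 1 fell and 3 rose. The one that fell, Eif2ak2, the kinase PKR that senses double-stranded RNA, had 190.6, 37.06 and 26.92 normalized counts in NGPF2 libraries, against 232.8, 247.4 and 240.9 in vehicle libraries (log2 -2.91, SE 0.24, adjusted p = 0.00316). The eIF2B subunits Eif2b4 (log2 0.57, adjusted p = 0.0202) and Eif2b5 (log2 0.42, adjusted p = 0.0338) were among those that rose. Neither passed with no filter on low values or with a variance prior without trend. Eif2b5 also did not pass under quantile and library total scaling. Of 8 other ER membrane factors 3 fell, with log2 differences of -1.85 for Creb3l2, -1.10 for Creb3l1, both membrane-bound transcription factors, and -0.28 for Tmbim6, a regulator of ER calcium that did not pass with the replicate block (adjusted p = 0.0645).

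The remaining lists cover tRNA charging, ER folding and degradation. Of 14 aminoacyl-tRNA synthetases, many of which ATF4 is known to induce, 1 fell, Lars (log2 -0.45, SE 0.07, adjusted p = 0.0125), and 0 rose. Of 15 other ER folding factors 4 fell and 1 rose, including the oxidase Ero1l (log2 -0.59, adjusted p = 0.00858) and the isomerase Fkbp2 (log2 0.57, adjusted p = 0.0107). Of 16 other genes of ER-associated degradation and translocation, 1 fell, the coat protein Sec24d (log2 -0.78, adjusted p = 0.0163), and 0 rose. The median log2 difference in replicates 2 and 3 was -0.71 in the list of ATF4 and CHOP partners and targets, -0.12 in the synthetases, 0.03 in the other ER folding factors and -0.12 in the degradation list, against -0.003 over all genes.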

How the data were processed

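The deposited table carries the name FPKM, yet each of its values is the log2 of 1 plus a normalized count. In each library 100% of the values were whole multiples of 1 step (tolerance 0.01), so counts were recovered. Per the submitters' processing notes, FastQC, STAR 2.5, Cuffnorm, DESeq 1.22.1 and mm10 were used. Their roles, the annotation and the strandedness were not given in the sources used here. The columns used as replicate 1 were assigned by elimination and carry the digit 3 in their names, and every value of pair 1 rests on this assignment.

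Tests on the deposited log2 values used limma 3.58.1 (R 4.3.3, trended prior, 2-sided, Benjamini-Hochberg over the 16653 genes that averaged 10 or more normalized counts, threshold 0.05). The 4 fits were 3 pairs with the replicate number as a block, replicates 2 and 3 alone, the interaction with the library set, and vehicle replicates 2 and 3 against replicate 1. The block follows the stated pairs. Deviations of same-numbered libraries correlated at 0.59, 0.30 and 0.33, but NGPF2 3 with vehicle 2 reached 0.34 and NGPF2 2 with vehicle 3 reached 0.32, so the data set replicate 1 apart and do not pair replicates 2 and 3. On simulated data the fit over 3 pairs and that of replicates 2 and 3 were checked for recovery of known changes. The simulated data held no difference between library sets, and the interaction and vehicle fits were not checked.

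The 37 genes, the lists and the rule on named genes were chosen with earlier results of these data known. The rule gives every library for genes that passed in replicates 2 and 3 and for Atf4, Atf6, Ern1, Eif2ak3, Xbp1, Ddit3 and Hspa5, and up to 3 genes of smallest p per further list. Of 2 identifiers named Ddit3 the one with the higher count was used. FPKM, positions and exon overlaps were computed with GENCODE M21. Libraries of 1 group differed by more than counting error.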

Additional observations from a re-analysis of the deposited data

Results flagged for a closer look

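The NGPF2 difference was tested between replicates 2 and 3 and replicate 1 with an interaction term (limma). In these pathways 8 genes passed, 4 of the 37 and 4 of the 81 further genes, all with a lower difference in replicates 2 and 3. Among all genes tested 1.77% passed with a lower difference and 0.721% with a higher one. The term was -1.78 (log2) for Phgdh, -1.25 for Ddit3, -1.08 for Sesn2 and -0.92 for Slc7a5. It was -2.68 for Cth, -2.62 for Eif2ak2, -2.16 for Slc7a3 and -1.81 for Creb3l2. With a variance prior without trend, without vehicle replicate 2 and without vehicle replicate 3, 0 of the 8 passed. The library set, the experiment and the cell makeup of the cultures cannot be told apart in these 6 libraries.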

How the results depend on the processing

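Over the 3 pairs, 1 gene of all those tested passed with a pseudocount of 5 and 1 with no replicate block, and leaving out a replicate gave 0 to 3275 genes and 0 to 23 of the 37 stress response genes, the upper values being without replicate 1. In replicates 2 and 3 the 3511 genes and 20 stress response genes were 1074 and 7 with no filter, 1535 and 12 with a variance prior without trend, 3275 and 23 with a replicate block, and 0 to 3206 and 0 to 20 when a library was left out. With the block Dnajb9, Psph and Slc7a1 gained the call and Tmbim6 lost it. There the pairing is by number alone, as deviations of same-numbered libraries correlated at -0.0146. Library total scaling moved the median of all genes by -0.13 (log2) and gave 982 higher and 2664 lower genes (26.9% higher), against 1627 and 1884 (46.3% higher). The interaction gave 415 genes and 4 stress response genes, against 4684 with no filter, 733 at a mean of at least 50, 22 and 0 without trend, 1368 and 10 with voom, 526 with a replicate block, and 0 to 412 and 0 to 4 when a library was left out. The vehicle contrast gave 3322 and 12, against 7 stress response genes with no filter, 1232 and 2 without trend, 4999 and 19 with voom, and 0 to 1 and 0 when a vehicle library was left out. Signs turned under quantile scaling for Hspa5 (-0.08227 over 3 pairs, -0.08576 in replicates 2 and 3, -0.01047 in the interaction), and in replicates 2 and 3 for Hsp90b1 (-0.02768), Canx (-0.08392) and Pdia3 (-0.0173). Under library total scaling they turned for Hspa5 (-0.03405 over 3 pairs, -0.02547 in replicates 2 and 3), Canx (-0.04678), Pdia6 (-0.02714) and Creld2 (-0.02914). When a library was left out Ddit4 ran from -0.267 to 0.05492, above 0 without NGPF2 replicate 3, and over the pairs Atf6 ran from -0.2227 to 0.0294, above 0 without replicate 3. The causes were not tested. Of 1773 alternative values of single genes 1499 kept direction and side of the threshold, 190 lost the call, 71 gained it and 13 reversed. A library left alone in its group was assumed to vary like the other group.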
